A study of Mus musculus with 5 samples.

Results

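The 10 genes described here encode proteins that carry aristolochic acid I (AAI), a nephrotoxic plant nitro-compound, across cell membranes or that convert it to its reactive form. They are the organic anion transporters Slc22a6, Slc22a8 and Slc22a7, the reductases and electron donors Nqo1, Por, Cyb5a and Cyb5r3, the sulfotransferase Sult1a1, and the efflux pumps Abcg2 and Abcc2. The genes were chosen by name and not by their values, and each of the 10 matched 1 row among the 32285 genes listed in every library. Kidneys came from wild-type male mice of strain C57BL/6 that were between 8 and 10 weeks old, and were dissociated for droplet-based 3′ single-cell RNA sequencing. The control group (1 library) received vehicle. The AKI group (2 libraries, AKI 1 and AKI 2) received AAI at 3 mg/kg intraperitoneally every 3 days for 2 weeks and was taken at week 2. The CKD group (2 libraries, CKD 1 and CKD 2) received the same injections, was left without AAI for a further 2 weeks and was taken at week 4. No source used here says how many mice each library holds or that libraries of a group are separate mice, so p-values measure only the spread between these libraries, which may be technical.

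AAI is an organic anion in blood, and organic anion transporters on the basolateral side of proximal tubule cells are the textbook route of its entry into the kidney. Inside the cell its nitro group is reduced, mainly by the cytosolic quinone reductase NQO1 and in microsomes by cytochrome P450 enzymes that draw electrons from POR, and the product binds DNA. Sulfotransferases can conjugate the hydroxylated intermediate, and ATP-binding cassette pumps of the apical membrane move conjugates into urine.

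The values are unique molecular identifiers (UMIs), each standing for 1 captured RNA molecule, counted per gene and cell. The libraries held between 90028670 and 121316769 UMIs, and 53718 cells passed the filters (at most 30% mitochondrial UMIs, at least 200 genes, doublets removed), from 8496 cells in the control to 16330 in CKD 1. Cells were grouped into 51 clusters without use of the 10 genes, and clusters were named from marker genes. A level is the UMIs of a gene summed over the cells of 1 class in 1 library, per 10000 UMIs of those cells, and its interval (95%, exact Poisson) covers counting error only. Because 3′ counts are not corrected for transcript differences, levels are compared between cells and libraries and not between genes. CellBender, which the study used to remove free RNA, was not run. The control and CKD 2 shared 117 barcodes, 88 of them with over 20 times the UMIs in 1 of the 2 libraries. Control cells with a barcode shared with CKD 2 were 1 of 1018 PT-like, 37 of 932 macrophage-like and 26 of 1091 T lymphocyte-like cells, and the calls within classes given below held without them.

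In the annotation of GRCm39 (GENCODE vM39) both main uptake transporters lie side by side, with Slc22a8 at chr19:8568476-8589541 and Slc22a6 at chr19:8595356-8605663, both on the plus strand and 5815 bases apart. Slc22a7 lies at chr17:46743044-46749407, minus strand. The activating genes are at chr8:108113835-108129934 (Nqo1, minus strand), chr5:135698887-135764182 (Por, plus strand), chr18:84856796-84897996 (Cyb5a, plus strand) and chr15:83037695-83056793 (Cyb5r3, minus strand). Sult1a1 is at chr7:126271299-126275615 on the minus strand. The pumps are at chr6:58561505-58672661 (Abcg2, plus strand) and chr19:43770631-43829179 (Abcc2, plus strand). All 10 are protein-coding genes.

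Proximal tubule-like (PT-like) cells numbered 4943 in 5 clusters, of which the control gave 1018, AKI 1 gave 588, AKI 2 gave 515, CKD 1 gave 2449 and CKD 2 gave 373. In the same order a median cell held 3370, 2445, 5469, 2731 and 4300 UMIs. Slc34a1, the proximal phosphate transporter, stood at 27.9 to 33.3 UMIs per 10000 in the 5 libraries, and Slc5a2, the glucose transporter of the early segments, at 5.91 to 6.88. The 8 markers of the S1 and S2 segments summed to 62.3 to 82.8, with the control highest. Other markers of this list were less even. Gatm stood at 23.8 in the control and 8.40 to 9.96 in the AKI and CKD libraries. Lrp2 stood at 7.09 in the control and 3.76 to 4.92 in the others. Slc4a4 was lowest in the control, at 9.05, against 9.81 to 17.6. The 6 markers of the last segment (S3) summed to 1.67 to 2.94, most of it from Acy3 (0.795 to 2.61), Slc6a18 (0.0629 to 1.05) and Atp11a (0.246 to 0.517), whereas Slc7a13 stood at 0 to 0.0114. No cluster was named for S3, so cells of that segment were not set apart. The 6 injury markers summed to 0.120 in the control, 2.62 and 2.43 in AKI 1 and AKI 2, and 0.598 and 0.691 in CKD 1 and CKD 2, and Havcr1 (KIM-1) was at 0 in the control. Markers of other cells were present. The 5 TAL markers (thick ascending limb) summed to 6.62, 2.54, 1.63, 6.70 and 1.26 in the order control, AKI 1, AKI 2, CKD 1, CKD 2, highest in the control and CKD 1. The 5 thin limb markers summed to 0.620, 3.6, 2.76, 2.45 and 1.54, lowest in the control, and the 4 DCT markers (distal convoluted tubule) to 1.59, 0.259, 0.114, 0.493 and 0.190, highest in the control. The 5 macrophage markers summed to 0.166, 1.54, 1.05, 3.07 and 0.289 in the same order, and the 6 T lymphocyte markers to 0.0667, 0.712, 0.348, 3.27 and 0.979. The macrophage and T lymphocyte sums were highest in CKD 1. The part of these other cell types in the results was not tested. The cluster mix also differed. A cluster of 761 cells held 724 cells of CKD 1, and a cluster marked by Miox made up 19.6% of the control PT-like cells but 4.53 to 10.5% of those of the AKI and CKD libraries.

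RefSeq promoter windows (GRCm38.p6, 250 bases before to 50 bases after the start of transcription) were found for 7 of the 10 genes, with 3 windows for Abcg2. The 250 bases before the start are shown for the uptake pair, whose levels were highest in PT-like cells, and for Nqo1 and Abcc2, as genes whose textbook regulator is the oxidant sensor NRF2. They come from chr19:8617746-8617995 (Slc22a6, plus strand), chr19:8592932-8593181 (Slc22a8, plus strand), chr8:107403206-107403455 (Nqo1, minus strand) and chr19:43782058-43782307 (Abcc2, plus strand). Capitals mark matches to the motifs searched, on both strands.
Slc22a6: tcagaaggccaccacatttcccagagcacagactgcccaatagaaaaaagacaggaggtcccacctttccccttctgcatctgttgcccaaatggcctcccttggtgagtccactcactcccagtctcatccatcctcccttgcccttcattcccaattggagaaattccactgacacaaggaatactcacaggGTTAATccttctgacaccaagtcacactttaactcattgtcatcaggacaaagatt
Slc22a8: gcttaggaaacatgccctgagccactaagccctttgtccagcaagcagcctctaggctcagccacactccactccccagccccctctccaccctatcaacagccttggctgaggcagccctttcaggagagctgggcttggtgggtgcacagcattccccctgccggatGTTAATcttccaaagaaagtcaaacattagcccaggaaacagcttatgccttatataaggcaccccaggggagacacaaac
Nqo1: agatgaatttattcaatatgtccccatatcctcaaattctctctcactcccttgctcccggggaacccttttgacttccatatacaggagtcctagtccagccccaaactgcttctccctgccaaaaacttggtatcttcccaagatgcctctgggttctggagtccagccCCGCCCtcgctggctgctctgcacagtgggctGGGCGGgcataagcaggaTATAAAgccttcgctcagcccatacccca
Abcc2: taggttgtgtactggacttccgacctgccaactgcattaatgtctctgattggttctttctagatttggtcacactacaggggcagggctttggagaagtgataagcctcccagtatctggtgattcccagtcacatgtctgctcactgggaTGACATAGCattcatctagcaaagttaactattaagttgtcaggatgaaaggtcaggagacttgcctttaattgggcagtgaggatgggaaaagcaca

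The letters GTTAAT, part of the site of the tubular factor HNF1, were found at -56 to -51 from the start of Slc22a6 and at -81 to -76 of Slc22a8, as well as in the window of Sult1a1. They are in 7.10% of the 32851 mouse windows. The antioxidant response element core TGACNNNGC is in 12.4% of all windows. Among the 7 genes with a window it was found in that of Abcc2, as TGACATAGC at -98 to -90. Nqo1 had the Sp1 letters GGGCGG or their reverse complement CCGCCC (35.7% of windows) at -47 to -42 and at -79 to -74, and the TATA letters TATAAA (13.6%) at -29 to -24. Por had the Sp1 letters at 4 places and the xenobiotic response element core GCGTG or CACGC (32.4%) at 3. The HNF4 letters CAAAGTCCA (0.475%) were in none of the windows found. A match describes these letters and not a bound site. Bases outside the windows were not searched, so a missing match does not mean that a gene lacks the motif.

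The first question was which cells hold transcripts for both uptake and activation. Among the 13 classes with at least 20 cells in every library, PT-like cells had the highest mean level of 6 of the 9 genes that could be ranked, namely Slc22a6, Slc22a8, Por, Cyb5a, Abcg2 and Abcc2. Levels by class are a description, without a test.

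**Figure D1:**
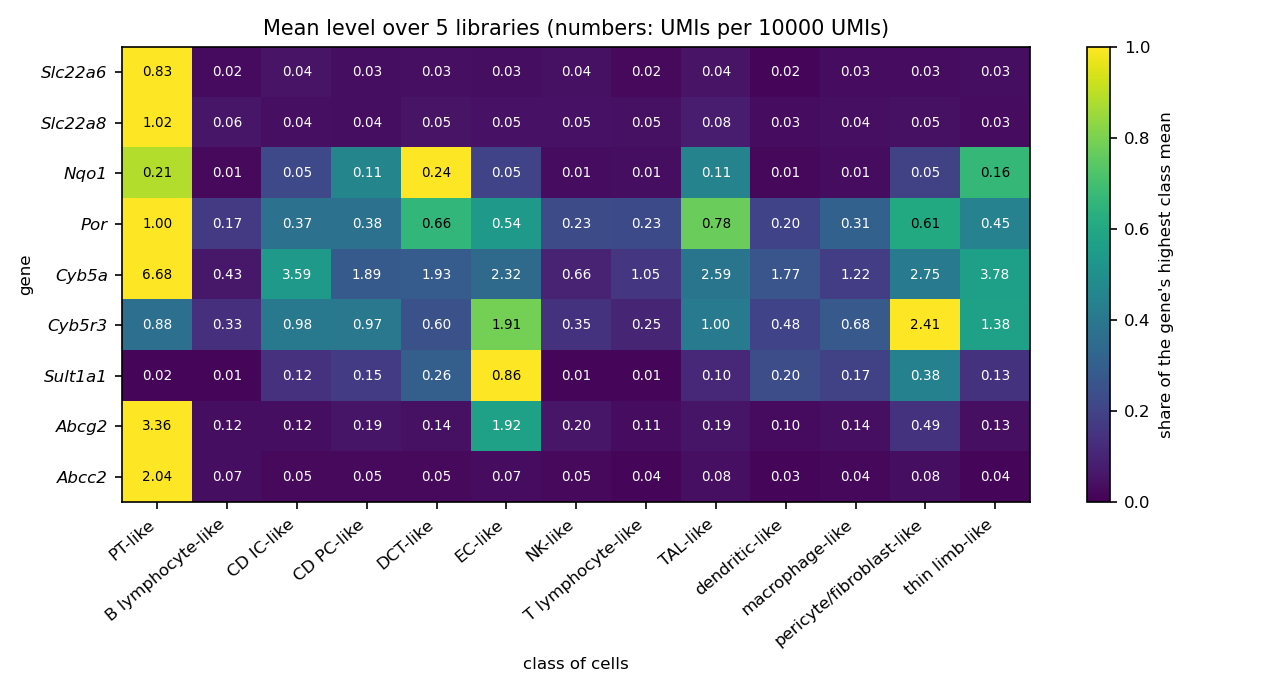
Mean level of each gene (rows) in 13 classes of cells (columns) over 5 libraries, printed in UMIs per 10000 UMIs, with colour giving the share of the gene's highest class mean. The 2 uptake transporters and Abcc2 are bright in PT-like cells alone, whereas Nqo1 is brightest in DCT-like, Cyb5r3 in pericyte/fibroblast-like and Sult1a1 in EC-like cells.

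Slc22a6 (OAT1) had a mean of 0.831 ± 0.348 UMIs per 10000 (SD, n = 5 libraries) in PT-like cells and 0.0446 ± 0.0830 in the next class, collecting duct intercalated (CD IC-like) cells. The ranges over libraries did not overlap. Slc22a8 (OAT3) had 1.02 ± 0.385 in PT-like cells against 0.0776 ± 0.0535 in thick ascending limb (TAL-like) cells, again without overlap. PT-like cells held 67.8 to 89.1% of all Slc22a6 UMIs of kept cells and 69.0 to 83.2% of those of Slc22a8, whereas they held 4.18 to 14.9% of the UMIs of all genes. Slc22a7 (OAT2) was close to undetected. It gave 3 UMIs in all kept cells, all in CKD 1, of which 2 were in PT-like cells. In the PT-like cells of the other 4 libraries a count of 0, taken as at most 3 UMIs, allows up to 0.00483 to 0.00921 UMIs per 10000, and the upper ends of the 95% exact Poisson intervals were 0.00594 to 0.0113.

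The activating genes were less confined. Nqo1 was highest in distal convoluted tubule (DCT-like) cells, with 0.242 ± 0.0220, followed by PT-like cells with 0.214 ± 0.0763 and thin limb-like cells with 0.161 ± 0.0532, and these neighbours overlapped. With the 15% limit on mitochondrial UMIs PT-like cells had the highest mean. PT-like cells held 12.2% of the Nqo1 UMIs in the control and 34.9 to 54.2% in the other 4 libraries. Por had 1.00 ± 0.211 in PT-like and 0.776 ± 0.211 in TAL-like cells, which overlapped, and with doublets kept neutrophil-like cells had the highest mean. Cyb5a (cytochrome b5) had 6.68 ± 1.86 in PT-like and 3.78 ± 0.445 in thin limb-like cells, which did not overlap. Cyb5r3 (cytochrome b5 reductase) was highest in pericyte/fibroblast-like cells at 2.41 ± 0.932, next in endothelial (EC-like) cells at 1.91 ± 0.227, and PT-like cells were in place 7 at 0.884 ± 0.292. Sult1a1 was highest in EC-like cells, with 0.860 ± 0.228 against 0.378 ± 0.231 in pericyte/fibroblast-like cells, overlapping, and 0.261 ± 0.201 in DCT-like cells. In PT-like cells it had 0.0153 ± 0.00916, which rests on 3 to 31 UMIs per library.

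Both pumps were highest in PT-like cells. Abcg2 (BCRP) had 3.36 ± 0.654 there, 1.92 ± 0.227 in EC-like cells and 0.493 ± 0.142 in pericyte/fibroblast-like cells, and none of these neighbours overlapped. Abcc2 (MRP2) had 2.04 ± 0.568 in PT-like and 0.0832 ± 0.0599 in TAL-like cells, without overlap, and 74.2 to 83.8% of its UMIs were in PT-like cells. The 5 PT-like clusters differed among themselves. Abcc2 stood at 5.40 per 10000 in a cluster led by nuclear and long transcripts such as Gm26917, Snhg11 and Lrp2, and at 0.361 to 1.80 in the other 4. Cyb5a was lowest in that cluster, at 1.93, and highest in the cluster marked by Miox, at 14.7.

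The limit on mitochondrial UMIs removed more of the uptake transcripts in the control than elsewhere. Barcodes above 30% made up 38.7% of the control barcodes and 11.1 to 12.7% of those of the other 4 libraries. In the control they held 72.4% of the Slc22a6 UMIs, 71.9% of the Slc22a8 UMIs and 60.3% of the Abcc2 UMIs. In the AKI and CKD libraries they held 27.9 to 42.2% of the Slc22a6 UMIs and 29.1 to 44.3% of the Slc22a8 UMIs. For Cyb5r3 the share was 21% in the control and 3.71 to 6.59% in the others. The control was highest for all 9 genes plotted, so comparisons with it are given below with a limit of 60% as well. Cells were clustered anew for that limit, so its values differ from the others in both the limit and the clusters.

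**Figure D2:**
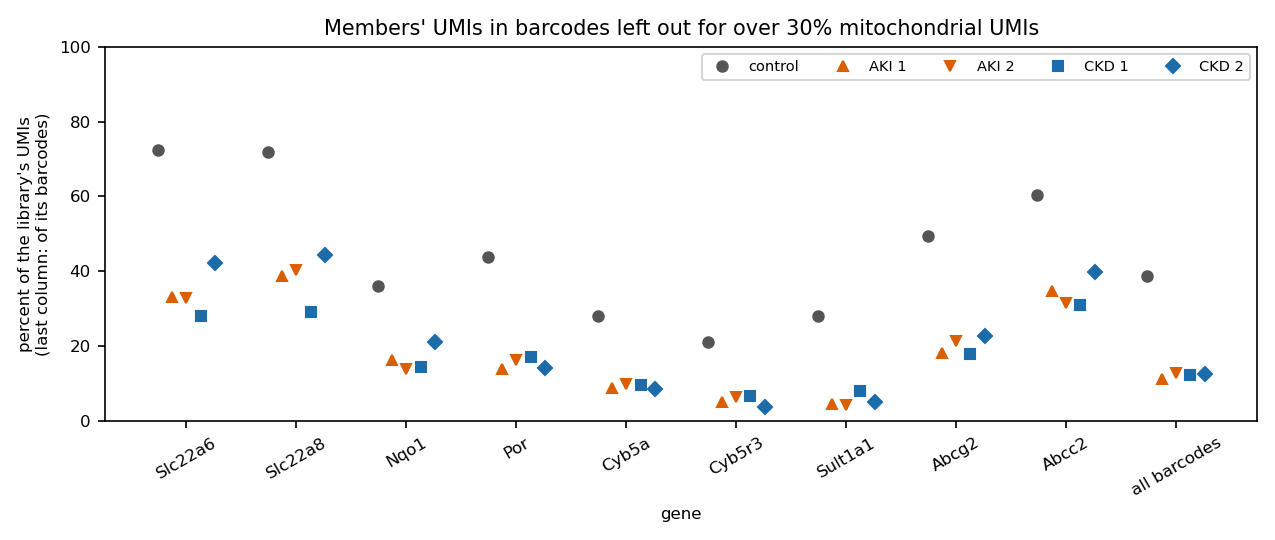
Percent of each gene's UMIs that lay in barcodes with over 30% mitochondrial UMIs, by library, with the percent of all barcodes in the last column. The control (grey circles) lies above the 4 other libraries for every gene plotted, at 72.4% for Slc22a6 and 38.7% for barcodes.

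The second question was how the genes changed in PT-like cells from control to AKI and CKD. In AKI against control Slc22a8 and Cyb5a fell and Cyb5r3 rose, in CKD against control Nqo1 rose, and between CKD and AKI no gene passed. Tests were edgeR's quasi-likelihood tests on UMIs summed per library, with Benjamini-Hochberg adjustment over 12769 genes. Slc22a7 did not pass the filter on low counts, which left 9 of the 10 genes. The control is 1 library, and in every comparison with it the fit assumes that it varies like the pairs of AKI and CKD libraries.

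**Figure D3:**
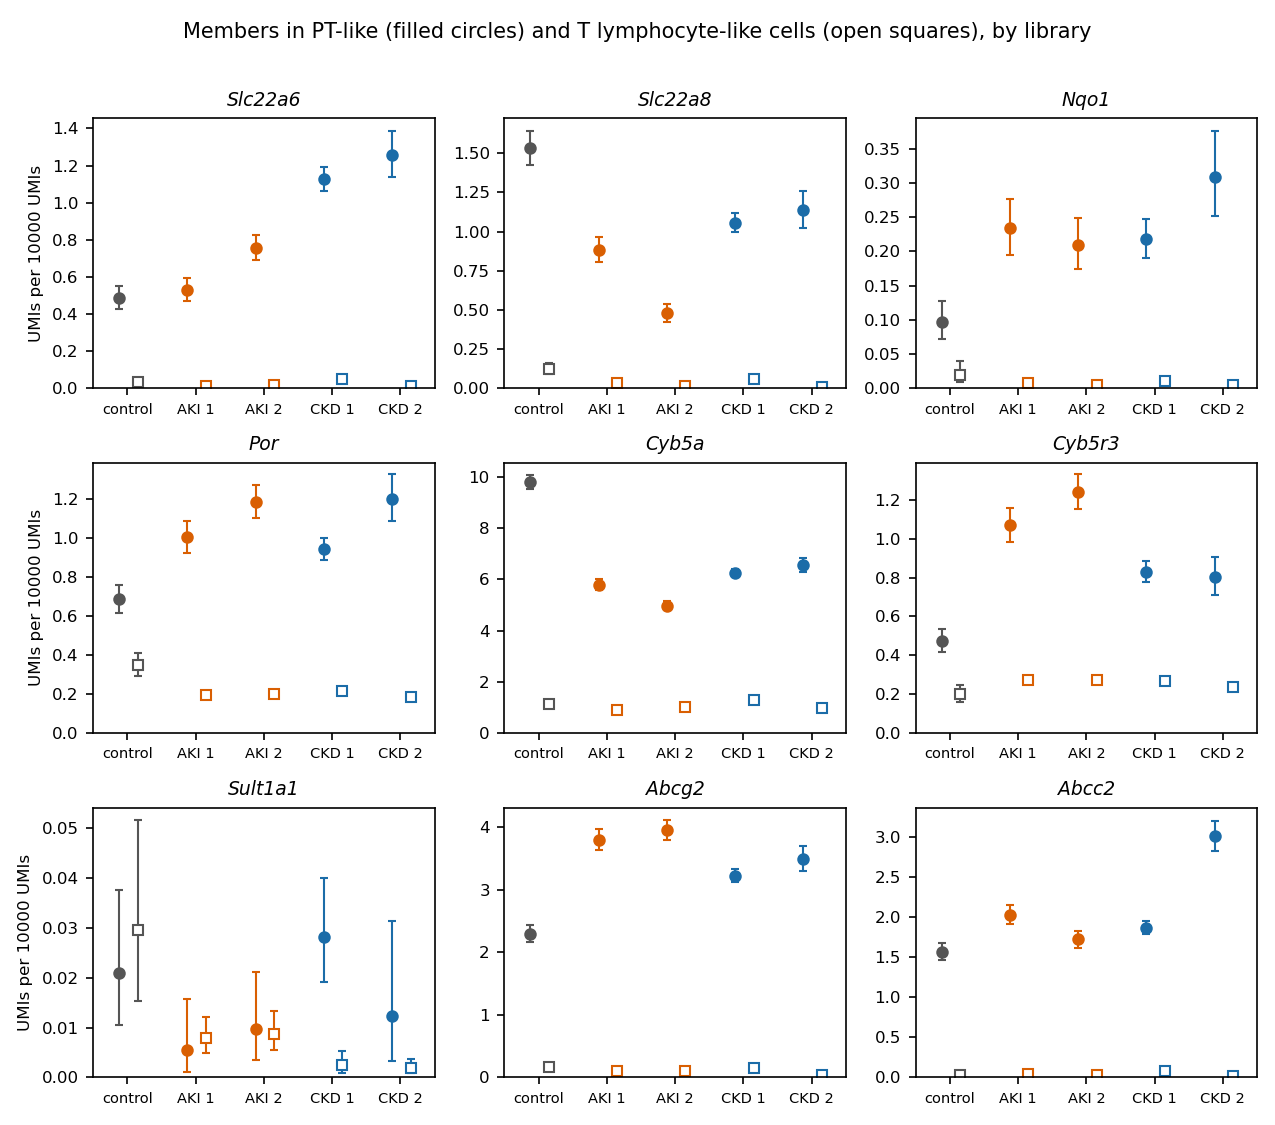
Level of 9 genes in PT-like cells (filled circles) and T lymphocyte-like cells (open squares) in each library, in UMIs per 10000 UMIs of the class, with 95% Poisson intervals. In PT-like cells Slc22a8 runs from 1.53 in the control to 0.477 in AKI 2, and Slc22a6 from 0.486 in the control to 1.26 in CKD 2.

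Slc22a8 stood at 1.53 UMIs per 10000 in the control, 0.883 and 0.477 in AKI 1 and AKI 2, and 1.05 and 1.14 in CKD 1 and CKD 2. The control was highest, the AKI libraries were lowest, and the groups did not overlap. It fell by 1.27 on the log2 scale in AKI against control (SE 0.312, adjusted p = 0.0483), while 3.09% of all genes tested were called lower and 5.54% higher in this comparison. The call rests on AKI 2. Without that library the log2 change was -0.88 (adjusted p = 0.214), and without AKI 1 it was -1.69 (adjusted p = 0.0119). The call was also lost with doublets kept, at least 1000 UMIs per cell or coarser clusters (adjusted p from 0.0519 to 0.115). With the limit of 60% the control level was 2.22, and Slc22a8 fell in AKI by 1.79 (adjusted p = 0.00664) and in CKD by 1.23 (adjusted p = 0.0329). With the limit of 30% the change in CKD against control was -0.54 (SE 0.315, adjusted p = 0.357). The change in AKI against control was also negative in TAL-like (-1.40), EC-like (-2.52), macrophage-like (-2.85) and T lymphocyte-like cells (-2.35), without a call. In T lymphocyte-like cells Slc22a8 went from 0.118 in the control to a mean of 0.0217 in AKI (SD 0.0104, n = 2). Free RNA was not removed, and its part in the PT-like fall was not tested.

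Slc22a6 behaved otherwise. Its level was 0.486 in the control, 0.529 and 0.755 in AKI 1 and AKI 2, and 1.13 and 1.26 in CKD 1 and CKD 2. Both CKD libraries were above both AKI libraries, and the control was lowest. None of its 3 comparisons passed. The log2 change was 0.32 in AKI against control (SE 0.279, adjusted p = 0.514), 1.23 in CKD against control (SE 0.288, adjusted p = 0.0536) and 0.91 in CKD against AKI (SE 0.222, adjusted p = 0.208). With the 60% limit the control level was 0.720, above AKI 1 at 0.496 and AKI 2 at 0.678. The change in AKI against control was then -0.46 (adjusted p = 0.245), and that in CKD against control was 0.52 (adjusted p = 0.218). Leaving out any 1 of the 4 AAI libraries brought the CKD against control change past the threshold (adjusted p from 0.0138 to 0.0277), and leaving out CKD 2 did so for CKD against AKI (0.83, adjusted p = 0.0475). The place of the control among the libraries therefore differed between the 2 settings, which differ in limit and clusters, while both CKD libraries stayed above both AKI libraries, at 1.11 and 1.24.

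Among the activating genes, Nqo1 stood at 0.0972 in the control, 0.234 and 0.209 in AKI 1 and AKI 2, and 0.218 and 0.310 in CKD 1 and CKD 2. The control lay below all 4 AAI libraries, and AKI and CKD overlapped. Nqo1 rose in CKD against control by 1.35 on the log2 scale (SE 0.297, adjusted p = 0.0460), where 4.0% of genes were called higher and 1.32% lower. In AKI against control the change was 1.10 (SE 0.296, adjusted p = 0.0634). With the 60% limit it rose by 1.60 in CKD (adjusted p = 0.0197). The call in CKD was lost with DESeq2 (adjusted p = 0.0639), with a limit of 15% mitochondrial UMIs (adjusted p = 0.0717) and with at least 1000 UMIs per cell (adjusted p = 0.050, above 0.05 before rounding).

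Cyb5a had 9.82 in the control, 5.80 and 4.97 in AKI 1 and AKI 2, and 6.27 and 6.55 in CKD 1 and CKD 2. The control was above the other 4 libraries. Cyb5a fell in AKI against control by 0.96 (SE 0.215, adjusted p = 0.0380), and the change in CKD was -0.67 (SE 0.217, adjusted p = 0.120). The call was lost without AKI 1 (adjusted p = 0.173), without AKI 2 (adjusted p = 0.294), with the 60% limit (-0.66, adjusted p = 0.0586) and with coarser clusters (adjusted p = 0.0729). The cluster marked by Miox, in which Cyb5a stood at 16.2 in the control and 10.0 to 14.8 in the other libraries, was a larger share of the PT-like cells in the control. The part of this mix in the fall was not tested.

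Cyb5r3, the reductase that feeds electrons to cytochrome b5, moved the other way, with 0.475 in the control, 1.07 and 1.24 in AKI 1 and AKI 2, and 0.829 and 0.804 in CKD 1 and CKD 2. The 3 groups did not overlap and the AKI libraries were highest. It rose in AKI against control by 1.20 (SE 0.234, adjusted p = 0.0261) and by 0.84 with the 60% limit (adjusted p = 0.0323). The change in CKD against control was 0.73 (SE 0.230, adjusted p = 0.116). The AKI call was lost without AKI 2 (log2 change 1.09, adjusted p = 0.0970) and with coarser clusters (0.80, adjusted p = 0.0902). Por had 0.684 in the control and 1.00, 1.18, 0.944 and 1.20 in AKI 1, AKI 2, CKD 1 and CKD 2, without a call (0.59, adjusted p = 0.178 in AKI and 0.58, adjusted p = 0.215 in CKD). With the 60% limit and its own clusters the Por change in AKI was -0.04.

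The pumps passed no test in PT-like cells. Abcg2 had 2.30 in the control against 3.81, 3.95, 3.23 and 3.50 in AKI 1, AKI 2, CKD 1 and CKD 2, a log2 change of 0.67 in AKI (SE 0.220, adjusted p = 0.107) and 0.49 in CKD (SE 0.219, adjusted p = 0.235). Abcc2 had 1.57, 2.03, 1.72, 1.86 and 3.00 in the order control, AKI 1, AKI 2, CKD 1, CKD 2, and CKD 2 stood apart from the others. Its log2 change was 0.57 in CKD against control (SE 0.30, adjusted p = 0.312). Sult1a1 in PT-like cells was at or near its level in T lymphocyte-like cells in the control, AKI 1 and AKI 2 and is read as background there.

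**Figure D4:**
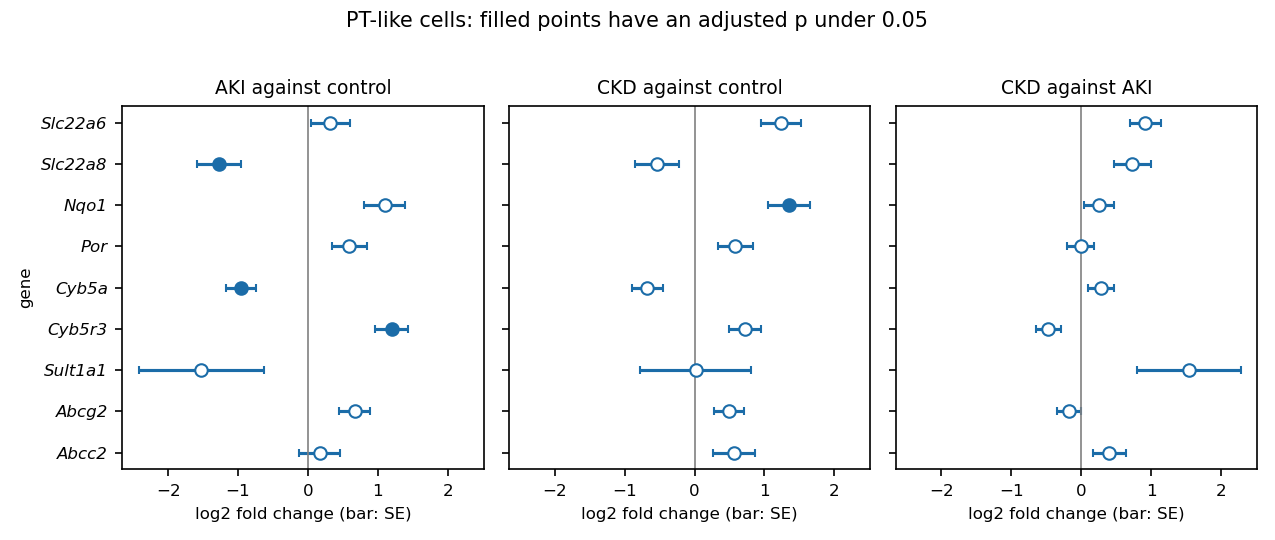
Log2 fold change of 9 genes in PT-like cells with its SE (bars) in 3 comparisons, with filled points where the adjusted p of edgeR's test is under 0.05. Filled points are Slc22a8, Cyb5a and Cyb5r3 in AKI against control and Nqo1 in CKD against control, and no point is filled in CKD against AKI.

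Of the 9 genes tested in PT-like cells, AKI against control called 1 higher and 2 lower, and CKD against control 1 higher and 0 lower. Their median log2 change was 0.32 and 0.57, against -0.01 and 0.02 over all genes. In CKD against AKI edgeR called 0 of the 9 genes, DESeq2 called 0, and 3 had an unadjusted p under 0.05, namely Slc22a6, Slc22a8 and Cyb5r3. The background there was 0% of genes called higher and 0.0470% called lower, which is 6 of 12769 genes by edgeR, against 108 by DESeq2 and 1647 at an unadjusted p under 0.05. With 2 libraries in each group an exact permutation test of a single value cannot go below p = 0.333, so none is given.

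A look at the deepest PT-like cluster alone, chosen after seeing the data, left out all other PT-like clusters. This deepest cluster held 1342 cells with a median of 11556 UMIs per cell. Slc22a8 there was 1.97 in the control, 0.874 and 0.465 in AKI 1 and AKI 2, and 1.33 and 1.13 in CKD 1 and CKD 2, and it fell in AKI by 1.62 (adjusted p = 0.00308). Slc22a6 was 0.541, 0.468, 0.771, 1.35 and 1.14 in the same order, and it rose in CKD against AKI by 1.08 (adjusted p = 0.0385) and in CKD against control by 1.25 (adjusted p = 0.0379). Nqo1 rose in AKI by 1.30 (adjusted p = 0.0197) and in CKD by 1.72 (adjusted p = 0.00808). Cyb5r3 rose in AKI by 0.93 (adjusted p = 0.0127) and Cyb5a fell in AKI by 0.70 (adjusted p = 0.0438). Slc22a6 was thus called in CKD against AKI in this cluster and not in all PT-like cells. Other PT-like clusters were not tested alone. In the Miox cluster Slc22a8 was 0.708 in the control and 1.20 and 1.18 in AKI 1 and AKI 2 (109, 30 and 22 UMIs). Slc22a6 there was 0.562 and 0.806 in AKI and 0.400 and 0.449 in CKD. In the clusters led by Kap and by Gm26917 Slc22a8 was lower in both AKI libraries than in the control. Slc22a6 was higher there in both CKD libraries than in both AKI libraries. In the Kap cluster Slc22a8 rests on 11 UMIs in AKI 1 and 11 in AKI 2, and Slc22a6 on 6 and 9. The cluster mostly of CKD 1 held 4 to 15 cells of each other library and was not compared.

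Uptake and reduction transcripts were also sought in the same cell. After thinning each cell to 1000 UMIs, which leaves out 117, 166, 100, 0 and 64 shallower PT-like cells in the order control, AKI 1, AKI 2, CKD 1, CKD 2, a UMI of any of the 3 organic anion transporters was found in 15.9, 12.8, 9.64, 14.8 and 18.4% of PT-like cells. T lymphocyte-like cells, taken as the background class, gave shares of 1.81, 0.622, 0.395, 1.68 and 0.223%. Median depths before thinning were 3287, 3712, 3674, 3589 and 5604 UMIs per cell there. Nqo1 was found in 0.666, 2.37, 1.45, 1.55 and 0.971% of thinned PT-like cells. Both together were found in 2 of 901 control cells, or 0.222% (95% exact binomial interval 0.0269 to 0.799), in 0.711, 0.241 and 0.367% in AKI 1, AKI 2 and CKD 1, and in 0 of 309 cells in CKD 2, whose interval reaches 1.19%. These shares rest on 0 to 9 cells per library, too few to compare the libraries, and cells of 1 library are not replicates of its condition. Without thinning the shares with both were 2.85, 9.52, 10.9, 4.90 and 10.7%. In T lymphocyte-like, TAL-like, EC-like and macrophage-like cells no thinned cell held both. CKD 1 had no cell under 1000 UMIs in any of these classes or in PT-like cells. In AKI 1, by contrast, 199 of 563 TAL-like cells reached 1000 UMIs. The part of this difference between libraries in the CKD comparisons was not tested.

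Outside the proximal tubule the activating genes were tested in 4 further classes. In TAL-like cells Por, which was highest in the control at 1.12 and stood at 0.585 and 0.669 in AKI 1 and AKI 2 and at 0.677 and 0.829 in CKD 1 and CKD 2, fell in AKI against control by 0.96 (adjusted p = 0.0229). Cyb5r3 rose there by 1.08 (adjusted p = 0.0411), from 0.551 in the control to 1.21 and 1.32 in AKI 1 and AKI 2. Sult1a1 fell by 2.04 (adjusted p = 0.0462), from 0.204 to 0.0504 and 0.0578. These are 3 of 9 genes called where 10.5% of 12927 genes were. All 3 calls were lost without AKI 1 (adjusted p from 0.259 to 0.334) and without AKI 2 (adjusted p from 0.263 to 0.349), and with the 60% limit the Por change was -0.31 (adjusted p = 0.333). In CKD against control Abcc2 was called higher (log2 change 2.11, adjusted p = 0.0493, background 13.8%), at 0.0354 in the control and 0.184 and 0.0898 in CKD 1 and CKD 2. That is 13 to 95 UMIs per library, and CKD 1, the highest, also had the highest Abcc2 level in T lymphocyte-like cells. The call was lost without AKI 1 (adjusted p = 0.186), without AKI 2 (adjusted p = 0.191) and without CKD 1 (log2 change 1.24, adjusted p = 0.166). In CKD against AKI 0 of 9 genes were called by edgeR and 0 by DESeq2, with 4 at an unadjusted p under 0.05 and a background of 0.101%.

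Whether the change from AKI to CKD differed between PT-like and TAL-like cells was tested directly in 1 model. EdgeR called 0 of 9 genes, 1 had an unadjusted p under 0.05, and over all 12910 genes 0.00775% were called. In EC-like cells, where Sult1a1 and Abcg2 are prominent, edgeR and DESeq2 called 0 of 9 genes in each of the 3 comparisons. The number at an unadjusted p under 0.05 was 0 in AKI against control, 0 in CKD against control and 1 in CKD against AKI. The backgrounds were 0.0478, 0.104 and 0% of 12560 genes, and in CKD against AKI DESeq2 called 8 genes and 511 had an unadjusted p under 0.05. Endothelial Sult1a1 was 1.05, 0.598, 1.06, 0.629 and 0.963 in the order control, AKI 1, AKI 2, CKD 1, CKD 2, so the libraries of each pair differed by more than the groups did.

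In macrophage-like cells Sult1a1 fell in CKD. Its level was 0.323 in the control (92 UMIs), 0.178 and 0.234 in AKI 1 and AKI 2, and 0.0478 and 0.0564 in CKD 1 and CKD 2 (69 and 82 UMIs). The CKD libraries were lowest and did not overlap with the others. It fell by 2.66 against control (SE 0.264, adjusted p = 0.00123) and by 2.15 against AKI (SE 0.215, adjusted p = 0.00121), where 33.1% and 26.0% of 13756 genes were called, in either direction. Cyb5r3 ran the other way, at 0.323 in the control, 0.627 and 0.632 in AKI 1 and AKI 2, and 0.834 and 0.966 in CKD 1 and CKD 2. It rose by 1.09 in AKI against control (SE 0.211, adjusted p = 0.0240, background 13.7%) and by 1.45 in CKD against control (SE 0.212, adjusted p = 0.00382), and its AKI call was lost without AKI 1 (adjusted p = 0.119) or without AKI 2 (adjusted p = 0.109).

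Different clusters made up the macrophage-like cells in these groups. A cluster led by Ccl8 and C1qa, genes of a chemokine and of complement, held 55.7% of them in the control, 47.3 and 43.4% in AKI 1 and AKI 2, and 16.0 and 24.3% in CKD 1 and CKD 2. A cluster led by Ctsk, Mmp9 and Acp5, which encode matrix-degrading and osteoclast enzymes, held 11.1% in the control, 12.2 and 8.81% in AKI, and 30.6 and 27.6% in CKD. Within the Ccl8 cluster Sult1a1 stood at 0.349 in the control, 0.257 and 0.418 in AKI, and 0.0975 and 0.188 in CKD. In the Ctsk cluster it stood at 0.0296 and 0.0148 in CKD, and Cyb5r3 there at 1.09 and 1.14. The CKD libraries were thus lowest for Sult1a1 within the Ccl8 cluster as well.

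**Figure D5:**
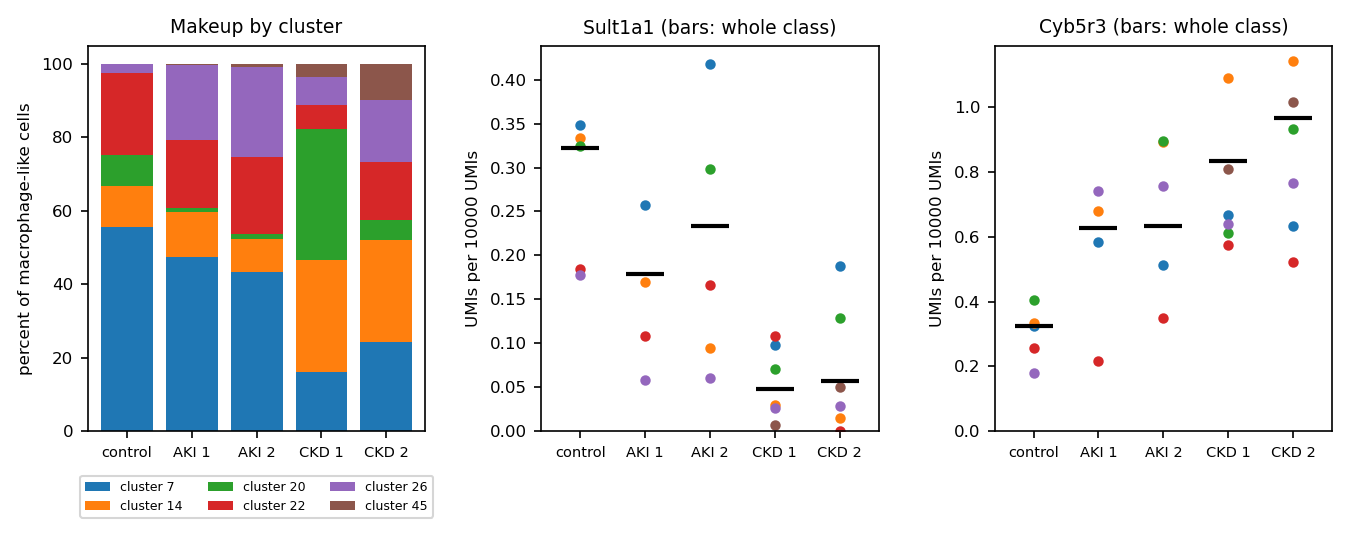
Left, percent of macrophage-like cells in 6 clusters per library. Middle and right, levels of Sult1a1 and Cyb5r3 in UMIs per 10000 UMIs in each cluster (points, same colours) and in the whole class (black bars). The class bar of Sult1a1 falls from 0.323 in the control to 0.0478 in CKD 1, and that of Cyb5r3 runs from 0.323 to 0.966 in CKD 2.

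The change of Sult1a1 from AKI to CKD differed between macrophage-like and EC-like cells. In a model over both classes, chosen after seeing the data, the difference was -2.18 on the log2 scale (SE 0.246, adjusted p = 0.0251), where 3.95% of 13297 genes were called. It was not called without AKI 1 (-1.96, adjusted p = 0.474) or without AKI 2 (-2.41, adjusted p = 0.408). In T lymphocyte-like cells Por fell by 0.74 in AKI against control (adjusted p = 0.0413, background 5.02%) and by 0.72 in CKD against control (adjusted p = 0.0205, background 18.8%), from 0.346 in the control to 0.194 and 0.197 in AKI and 0.213 and 0.181 in CKD. Sult1a1 passed the test there in CKD against control (-3.67, adjusted p = 0.0155), which rests on 12 UMIs in the control and 6 and 8 in CKD. These levels, 0.0295 in the control and 0.00241 and 0.00189 in CKD, are those taken above as background, so they are not read as a change within T lymphocyte-like cells. Without AKI 1 or AKI 2 these calls were lost (adjusted p from 0.0813 to 0.261). In CKD against AKI 0 of 9 genes were called by edgeR or DESeq2, with 1 at an unadjusted p under 0.05 and a background of 9.09%.

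Other genes of AAI handling in PT-like cells were read from 4 lists. Of 23 other transporters, 20 were tested. In AKI against control the dicarboxylate carrier Slc13a3 rose (0.90 on the log2 scale, adjusted p = 0.0454), and 2 fell, Slc22a28 (-3.46, adjusted p = 0.00299) and Slc22a30 (-3.52, adjusted p = 0.00256). In CKD against control Slc13a3 (1.76, adjusted p = 0.0111) and the pump gene Abcc4 (1.38, adjusted p = 0.0395) rose, and Slc22a28 (-1.88, adjusted p = 0.0222) and Slc22a30 (-1.93, adjusted p = 0.0112) fell. Slc22a28 and Slc22a30 are members of a family of close copies, and reads shared between copies make their values uncertain. The median log2 change of the list was 0.16 in AKI and 0.58 in CKD.

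Of 18 other oxidoreductases, 13 were tested. Cyp2e1, a cytochrome P450, rose in AKI (2.29, adjusted p = 0.00969), none passed in CKD, and the medians were 0.11 and 0.22. Of 15 other conjugating enzymes, 13 were tested. The microsomal glutathione transferase Mgst1 rose in AKI (1.79, adjusted p = 0.00824) and CKD (1.73, adjusted p = 0.0136), Gstm1 rose in CKD (1.16, adjusted p = 0.0349) and Gstp1 fell in AKI (-1.13, adjusted p = 0.0470), and the medians were 0.12 and 0.15. Gstm1 and Gstp1 also have close copies. Of 15 regulators and their targets, 14 were tested. Nfe2l2, which encodes NRF2, rose in AKI (0.96, adjusted p = 0.0371), its glutathione synthesis target Gclc rose in AKI (1.04, adjusted p = 0.0343) and in CKD (1.12, adjusted p = 0.0359), and the medians were 0.29 and 0.26. In CKD against AKI no gene of the 4 lists was called.

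Genes with the pattern most like Slc22a6 were sought over 77 class-by-library sums by Pearson's r of the log2 level. Among the closest were Slc3a1 (0.934), Kcnj15 (0.932), Slc5a2 (0.932) and Slc5a12 (0.928), and among the 10 genes Slc22a8 (0.903) and Abcc2 (0.898). For Nqo1 the closest were Ttll10 (0.855), Mfap3l (0.854), Pdk4 (0.843), Kyat1 (0.826) and Plekhg6 (0.824), and r with Slc22a6 was 0.383. These sums share libraries and differ in depth, and the coefficients are given as a description.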

How the data were processed

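The deposited files hold raw UMI counts (whole numbers) of each gene in each barcode, for 5 libraries, made by the authors with Cell Ranger and STAR and not normalized. Per the labels the version was 7.2.0 and the genome GRCm39, whereas the headers of the AKI and CKD matrices name 5.0.0 and the control's gene list names mm10. All libraries list the same genes in the same order, so counts were matched by gene identifier.

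Barcodes needed 200 genes or more and a mitochondrial share of UMIs of 30% or less, the limits of the study. Doublets were scored by the share of simulated doublets among 50 neighbours and removed at 0.8% per 1000 cells (723 to 2984 in the 4 AAI libraries, 672 in the control) in place of scDblFinder, and CellBender was not run. The 40 principal components of 3000 variable genes, without the 10 genes, were aligned between libraries by a reimplementation of Harmony, and Leiden clustering (resolution 1.5) was run on their 15-nearest-neighbour graph. Clusters of at least 50 cells with at least 3 detected markers were named. Names may therefore differ from those of the study.

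UMIs were summed per library and class and tested with edgeR 4.0.16 in R 4.3.3 (TMM, filterByExpr, quasi-likelihood test, Benjamini-Hochberg, threshold 0.05). DESeq2 1.42.0, other cell filters, clusterings and fits were alternatives. Tests were run on all 5 libraries in PT-like, TAL-like, EC-like, macrophage-like and T lymphocyte-like cells. The genes named are the 10 members, called genes of the 4 lists, and the 5 genes closest in pattern to Slc22a6 and to Nqo1 among those with at least 200 UMIs (log2 of the level plus 0.1), apart from a result that is not reported here. The members, markers and lists were chosen with earlier results of these data known. On simulated data for CKD against AKI in PT-like cells (12332 genes), 102 genes were changed 2-fold and 98 were changed 4-fold. Of these, 24.5% and 74.5% were recovered, with 16 false calls among the unchanged genes. For AKI against control (12433 genes, 104 and 96 changed) 4.81% and 67.7% were recovered with 11 false calls. The simulated control was made to vary like the other libraries. Clustering used igraph 0.11.9, leidenalg 0.10.2 and scikit-learn 1.9.0, under Python 3.11.15 with pandas 2.3.3, numpy 2.4.6, scipy 1.17.1 and matplotlib 3.10.9.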

Additional observations from a re-analysis of the deposited data

Results flagged for a closer look

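From AKI to CKD the log2 change of Sult1a1 in macrophage-like cells lay below that in EC-like cells by -2.18 (SE 0.246), and the test of that difference passed (edgeR's quasi-likelihood test, adjusted p = 0.0251), which is why it is listed here. The direction was the same in DESeq2 (adjusted p = 0.000578). Without AKI 1 (adjusted p = 0.474) and without AKI 2 (adjusted p = 0.408) the difference was not called. The macrophage-like cells came from different clusters in AKI and CKD, and the part of that mix in the difference was not tested.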

How the results depend on the processing

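Of 595 alternative values of named genes, 489 kept their direction and side of the threshold, 50 kept the direction and lost the call, 33 kept it and gained one, and 23 changed sign. With 2 or fewer libraries a group, changes of about 2-fold are often missed, the control has no replicate, and free RNA limits low levels outside PT-like cells.

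The number of the 9 genes called moved as follows, and the cause was not tested. The number called among all genes moves between fits as well. In TAL-like cells, AKI against control, it was 1363 with edgeR and 879 with DESeq2. It is not given for each fit, so the counts below are not read as a result about the 9 genes. In PT-like cells AKI against control gave 3 genes, and 0 with coarser clusters (resolution 0.8). CKD against control gave 1 gene, 0 with at least 1000 UMIs per cell, 2 with the 60% limit, without correction by library, with coarser clusters, in the deepest cluster or without the cluster mostly of CKD 1 (the last 2 chosen after seeing the data), and 3 without the filter on low counts. CKD against AKI gave 0 genes, 1 in the deepest cluster and 2 without the filter. In TAL-like cells AKI against control gave 3 genes, 1 with DESeq2 and 0 with a 15% limit. CKD against control gave 1 gene, 0 with DESeq2, the 15% or 60% limit, at least 1000 UMIs or no correction, and 3 with doublets kept or no filter, and CKD against AKI gave 0 genes and 3 with no filter. In EC-like cells the 3 comparisons gave 0 genes, and 1, 1 and 2 with no filter. In macrophage-like cells AKI against control gave 1 gene and 0 with the 60% limit or doublets kept, and CKD against AKI gave 1 gene and 2 with no filter. In T lymphocyte-like cells AKI against control gave 1 gene and 0 with DESeq2, the 60% limit, doublets kept or no correction. CKD against control gave 2 genes, 1 with DESeq2, which gave Sult1a1 no adjusted p, and 0 with no correction, and CKD against AKI gave 0 genes and 1 with no filter or no correction. The difference between PT-like and TAL-like cells gave 0 genes and 1 with no filter.

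Leaving out 1 library in turn gave 0 to 6, 2 to 4 and 0 to 1 genes in PT-like cells (AKI against control, CKD against control, CKD against AKI), 0 to 5, 0 to 6 and 0 to 6 in TAL-like, 0 to 1, 0 to 1 and 0 to 3 in EC-like, 0 to 3, 2 to 6 and 1 to 7 in macrophage-like, and 0 to 6 in each comparison of T lymphocyte-like cells. It gave 0 to 4 genes for the difference between PT-like and TAL-like cells and -2.41 to -1.96 for Sult1a1 between macrophage-like and EC-like cells. Where an arm keeps 1 library, that library is assumed to vary like the others.

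Among the classes, the highest mean moved for Nqo1 to PT-like cells with the 15% limit and for Por to neutrophil-like cells with doublets kept. The 60% limit, doublets kept and no correction were each clustered anew. Values that changed sign had not passed the test in either fit. With the 60% limit these were Slc22a6 (-0.46), Por (-0.041) and Abcc2 (-0.0044) in AKI against control, Por (-0.035) and Abcg2 (-0.039) in CKD against control and Por (0.0057) in CKD against AKI. In the deepest cluster they were Abcc2 (-0.10) in AKI against control and Abcg2 (0.085) and Por (0.072) in CKD against AKI. Sult1a1 in CKD against control changed from 0.016 to -0.039 with DESeq2, -0.64 with doublets kept, -0.43 without correction, -0.62 with coarser clusters, -0.21 without the cluster mostly of CKD 1, and between -0.84 and 0.41 with 1 library left out. Por in CKD against AKI changed from -0.0076 to 0.048 with the 15% limit, 0.0090 with coarser clusters, 0.0028 without correction by library, 0.028 without the cluster mostly of CKD 1, 0.0064 without the control and between -0.19 and 0.14 with 1 library left out.

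The replicate numbers of AKI and CKD are not said to mark a shared mouse or day. For each class the correlation between the deviations of AKI 1 from AKI 2 and those of CKD 1 from CKD 2 was computed. The coefficient was 0.218 in PT-like, 0.238 in T lymphocyte-like, 0.160 in macrophage-like, 0.145 in EC-like and -0.0371 in TAL-like cells. Whether libraries with the same replicate number share a mouse, day or batch was not tested. With the number as a replicate block, CKD against AKI in PT-like cells gave 2 genes, Slc22a6 (0.96, adjusted p = 0.00124) and Slc22a8 (0.79, adjusted p = 0.0146), with 751 genes called in place of 6, and Por stood at 0.012. The share of PT-like cells with uptake and Nqo1 transcripts moved without thinning to 2.85, 9.52, 10.9, 4.90 and 10.7% (control, AKI 1, AKI 2, CKD 1, CKD 2) and with thinning to 500 UMIs to 0% in AKI 2 and 0.163% in CKD 1. No cluster was named for the last proximal segment or for injured PT cells, so alternatives that need them gave no value, and S1 and S2 clusters alone were the same cells. The clusters made without correction by library, unlike the others, depended on floating-point rounding, so a call under that setting is less firm.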

Other observations

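Sult1a1 was also lower outside macrophage-like cells of CKD. In dendritic-like cells its level was 0.498 UMIs per 10000 in the control (52 UMIs), 0.198 in AKI 1, 0.170 in AKI 2, 0.0622 in CKD 1 (20 UMIs) and 0.0928 in CKD 2. The control was highest and the groups did not overlap. This class was not among those tested.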
